A study of Drosophila melanogaster with 2 samples.

Results

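Actin and tubulin are the building blocks of the cell skeleton, and flies make each from a family of genes. The genes examined here were 10 chosen by name: 4 general ones (the cytoplasmic actins Act42A and Act5C, the main alpha tubulin gene alphaTub84B and the general beta tubulin gene betaTub56D) and 6 tissue-restricted paralogues (the muscle actins Act57B, Act79B, Act87E and Act88F, betaTub60D of muscle and nerve, and betaTub85D of the testis). Earlier results of these data were known when the genes were chosen. The 10 genes were set against all 13945 protein-coding genes on chromosomes 2, 3, 4 and X, the members included. The data were chromatin immunoprecipitation and sequencing (ChIP-seq) peaks for the product of CG30020 in Drosophila melanogaster. The single group was 2 biological replicates, numbered 2 and 3, of mixed-sex whole embryos aged 0 to 24 h. All embryos carried the same transgene, CG30020 with GFP at its C terminus, precipitated with an antibody against GFP. DNA fragments were 200 to 800 bp long. The labels name 1 transgenic line, and chromatin of all embryonic cells was mixed, so a peak cannot be assigned to a cell type, and strong occupancy in few cells and weak occupancy in many cannot be told apart. The peak lists hold no expression values, so the labelled stage could not be checked against markers.

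Actin monomers join into filaments that give cells their shape, drive movement and, in muscle, slide against myosin. Alpha and beta tubulin pair into microtubules, the tracks of intracellular transport and the fibres of the spindle and of the sperm tail. General paralogues are used in most cells, while the restricted paralogues serve 1 or a few tissues. Act57B, Act87E and betaTub60D are known from muscle that forms in the embryo, whereas adult flight muscle and sperm tails form later in life.

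The authors deposited 4 peak lists. The stringent list, thresholded by irreproducible discovery rate (IDR), held 5048 peaks, and each of the 3 relaxed lists, from the pooled libraries and from each replicate, held 30000. All 5048 IDR peaks were the 5048 strongest of the pooled list, so an IDR call here is a limit on pooled signal, at 180.0 units or 0.528 times the median IDR peak. The signal is the authors' own value per peak, on a scale that is not stated. It is therefore given as a rank, or divided by a median for that list (the multiple), and the pair of replicate values shows the error. For the pooled list this is the median IDR peak. For a replicate it is the median of its strongest peaks within 250 bp of each IDR summit. Pooled and replicate multiples are thus not on exactly 1 scale. A gene is called bound when an IDR summit, the highest point of a peak, lies within 500 bp of any of its start sites. With 1 group of samples there is no comparison between conditions, and counts of genes are given beside the share of all protein-coding genes, without a test.

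Of the 10 genes, 3 were bound, or 30%, which is close to the 30.7% of all protein-coding genes. The bound genes were Act42A and Act5C among the 4 general genes and Act87E among the 6 tissue-restricted ones. In the relaxed pooled list, where 46.3% of all genes had a promoter summit, all 4 general genes had one, against 1 of the 6 tissue-restricted genes, again Act87E. In replicate 2 alone, where 49.4% of all genes had one, the counts were 4 of 4 and 2 of 6. Replicate 3 alone gave the same 4 of 4 and 2 of 6, beside 48% of all genes. The added tissue-restricted gene was Act57B in both replicates, with a weak summit at 0.0733 and 0.0891 times the median.

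**Figure D1:**
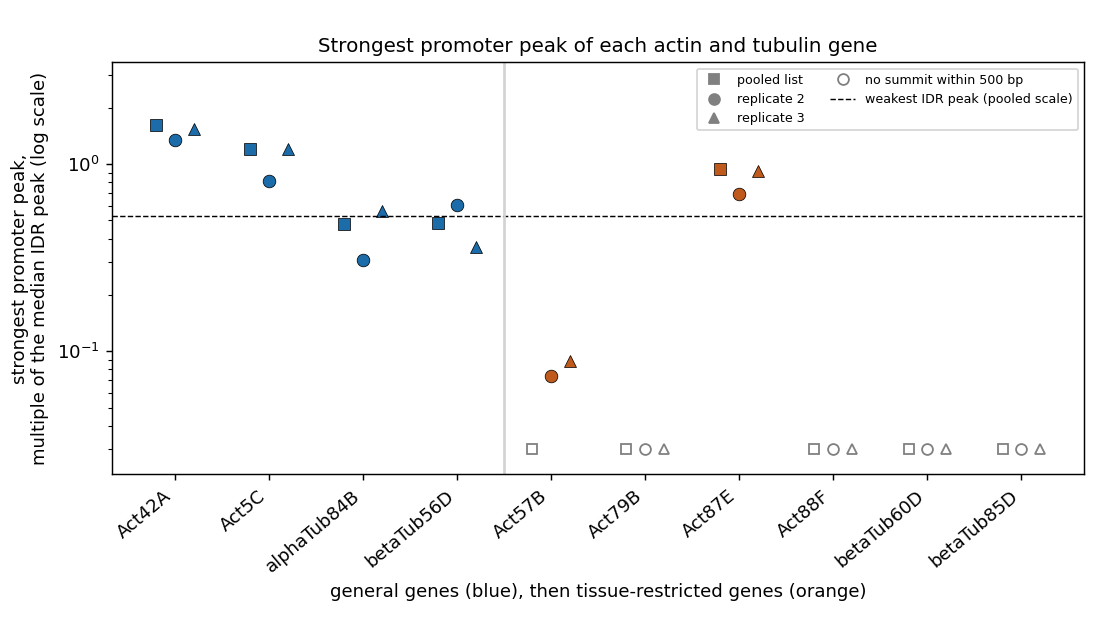
Strongest promoter peak of each gene (log axis, signal over that of the median IDR peak) for the pooled list (squares), replicate 2 (circles) and replicate 3 (triangles), with open grey symbols where no summit lay within 500 bp. The 4 general genes, in blue, have a filled symbol in all 3 lists, and 4 of the 6 tissue-restricted genes, in orange, have none in any list. The dashed line at 0.528 is the weakest IDR peak on the pooled scale.

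Act42A (FBgn0000043), a cytoplasmic actin gene on 2R (6013910 to 6015689, minus strand), had the strongest promoter peak of the 10. The multiples were 1.62 pooled, 1.34 for replicate 2 and 1.54 for replicate 3 (mean of the replicates 1.44 ± 0.136, SD, n = 2). All 3 values lay above the median used for their list. The pooled peak ranked 1307 in the list, and 1294 protein-coding genes of the 6463 with a pooled promoter peak had a stronger one. Its summit stood 101 bp upstream of the single annotated start, and the replicate summits stood 56 and 138 bp upstream in replicates 2 and 3. A weaker IDR summit lay 312 bp upstream, at 0.786 times the median. The replicates differed there, with 1.01 times at 258 bp in replicate 2 and 0.169 times at 358 bp in replicate 3. The next IDR summits upstream, 1789 and 1993 bp away, lay at Pngl, which starts on the opposite strand 2050 bp from Act42A.

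Act5C (FBgn0000042), the other cytoplasmic actin gene, on X (5900861 to 5905399, plus strand), has 2 annotated starts, at 5900861 and 5901982. For its strongest promoter peak the multiples were 1.21 pooled, 0.815 for replicate 2 and 1.21 for replicate 3 (mean 1.01 ± 0.277, SD, n = 2). The replicates thus stood on either side of 1. The summit was farther out than that of Act42A, 412 bp upstream of the first start in the pooled list, 388 bp in replicate 2 and 411 bp in replicate 3. A second IDR summit of similar signal, at 1.13 times the median, stood 668 bp upstream, just outside the 500 bp limit. Replicate 2 had it 665 bp upstream at 0.760 times the median, and replicate 3 listed no separate summit there. Both IDR summits lie between Act5C and the start of lncRNA:CR45668, a non-coding gene that runs the other way from 872 bp upstream. The inner summit was 460 bp from that start. At the second Act5C start, the pooled list held a summit 457 bp upstream at 0.0607 times the median, near the bottom of the list at rank 27375.

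The sequence under the Act5C summit and the sequence around its first start are shown to set the summit beside the core promoter. The windows do not overlap, but with fragments of 200 to 800 bp a summit does not place binding within such a window. Both sequences are from the Release 6 genome, plus strand, with matches to the searched motifs in capitals. The summit window (chrX:5900374-5900524) has 31.1% G and C, near the median of 33.8% over 3541 IDR summits at promoters (quartiles 28.5% and 39.7%). It holds 1 TATAAA but lies far upstream of the start, whereas the start window (chrX:5900761-5900910) holds GAGAG at 73 and 66 bases before the start and 2 overlapping TATA box matches, which begin 26 and 24 bases before it and lie on opposite strands.
Act5C summit: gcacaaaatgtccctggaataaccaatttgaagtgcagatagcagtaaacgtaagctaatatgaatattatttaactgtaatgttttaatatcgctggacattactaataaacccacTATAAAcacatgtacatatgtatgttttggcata
Act5C start: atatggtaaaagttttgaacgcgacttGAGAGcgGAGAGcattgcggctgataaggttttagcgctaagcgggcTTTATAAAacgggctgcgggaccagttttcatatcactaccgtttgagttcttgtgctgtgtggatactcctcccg

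The general tubulin genes had peaks as well, but weaker ones that fell just short of the IDR list. For alphaTub84B (FBgn0003884, 3R, 7086599 to 7088839, plus strand) the multiples were 0.480 pooled, 0.309 for replicate 2 and 0.563 for replicate 3 (mean 0.436 ± 0.179, SD, n = 2). The pooled signal of 163.8 stands below the IDR limit of 180.0, at rank 5501 against the last IDR rank of 5048. Replicate 3 gave it rank 4608, inside the 5048 strongest of that replicate, and replicate 2 gave it rank 7856. The replicates differ by more than the distance to the limit, so whether this gene is called depends on the library. The summit stood 103 bp upstream of the start in the pooled list, 154 bp in replicate 2 and 86 bp in replicate 3. The pooled list held a further summit 99 bp downstream, at 0.366 times the median, and replicate 3 one 125 bp downstream at 0.439 times. Replicate 2 lacked the downstream summit and had others 516 and 777 bp upstream, at 0.323 and 0.350 times, both above its 0.309. The first lay at the start of Tailor, a gene that runs the other way. The second lay 162 bp from the start of asRNA:CR45907. In all 3 relaxed lists the upstream summit credited to alphaTub84B also had the start of Tailor within 500 bp. The nearest IDR summit was 3254 bp downstream of the start, past the end of the gene.

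The alphaTub84B summit window (chr3R:7086421-7086571, plus strand) is shown because, unlike that of Act5C, it adjoins the core promoter and ends just before the TATA box, which begins 25 bases before the start. It has 51.7% G and C, above the upper quartile of 39.7% for IDR promoter summits. GAGAG on either strand and the initiator core TCAGT are in capitals.
alphaTub84B summit: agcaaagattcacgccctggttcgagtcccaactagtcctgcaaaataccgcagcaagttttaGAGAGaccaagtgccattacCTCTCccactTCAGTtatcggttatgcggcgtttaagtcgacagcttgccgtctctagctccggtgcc

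For betaTub56D (FBgn0284243, 2R, 19447319 to 19451600, minus strand, starts at 19451600 and 19449599) the multiples were 0.484 pooled, 0.608 for replicate 2 and 0.361 for replicate 3 (mean 0.485 ± 0.175, SD, n = 2). The order of the replicates was opposite to that at alphaTub84B. The pooled rank was 5461, and the replicate ranks were 4063 in replicate 2 and 7066 in replicate 3, so replicate 2 alone would call this gene. The summit stood at the outer start, 29 bp upstream in the pooled list, 80 bp in replicate 2 and 28 bp in replicate 3. A stronger IDR summit lay 851 bp upstream, at 1.26 times the median, 1.62 times in replicate 2 and 0.890 times in replicate 3. That summit is 53 bp from the start of CG7744, which runs the other way from 904 bp upstream of betaTub56D. With a 1000 bp window it would count for betaTub56D too. The inner start had a pooled summit 480 bp upstream at 0.179 times the median and no IDR summit.

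Among the tissue-restricted genes Act87E stood apart. Act87E (FBgn0000046, 3R, 13425983 to 13428375, plus strand) is a muscle actin gene with starts at 13425983 and 13426447. Its promoter peak had multiples of 0.947 pooled, 0.691 for replicate 2 and 0.921 for replicate 3 (mean 0.806 ± 0.163, SD, n = 2). All 3 values were below the median used for their list, and the pooled rank was 2713. The replicate ranges of Act5C and Act87E overlapped, although Act5C was the higher within each library, at 0.815 against 0.691 in replicate 2 and 1.21 against 0.921 in replicate 3. The summit stood 297 bp upstream of the first start in the pooled list, 296 bp in replicate 2 and 321 bp in replicate 3. The peak interval does not reach the start site, and with a 200 bp window the gene had no summit. The start of lncRNA:CR45591, which overlaps Act87E on the other strand, is 492 bp from the summit. A second pooled summit 2117 bp downstream of the inner start, past the end of Act87E, reached 0.521 times the median at rank 5103.

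The Act87E summit window (chr3R:13425611-13425761, plus strand) has 27.2% G and C, below the lower quartile of 28.5%, and no match to any of the 7 searched motifs, hence no capitals. The start window (chr3R:13425883-13426032) holds GAGAG and, 50 bases before the start, the initiator core on the reverse strand. Its TATA box begins 30 bases before the start and overlaps TATTTATA, a variant of the site of MEF2, a muscle transcription factor.
Act87E summit: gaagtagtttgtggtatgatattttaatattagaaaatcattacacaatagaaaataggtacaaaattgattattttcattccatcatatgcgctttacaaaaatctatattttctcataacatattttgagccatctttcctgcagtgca
Act87E start: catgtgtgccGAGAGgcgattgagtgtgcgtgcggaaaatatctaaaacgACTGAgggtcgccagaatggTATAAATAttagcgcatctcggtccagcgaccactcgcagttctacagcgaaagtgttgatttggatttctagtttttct

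The other 5 tissue-restricted genes had no IDR summit and no pooled summit within 500 bp. Act57B (FBgn0000044, 2R, 20944021 to 20946431), an actin of embryonic and larval muscle, had weak summits in the single libraries, at 0.0733 times the median in replicate 2 (rank 29542 of 30000) and 0.0891 times in replicate 3 (rank 23169). They stood 454 and 449 bp upstream of the start. A second place, 1486 bp upstream in the pooled list, was found in all 3 lists at 0.0893 to 0.136 times the median. The nearest IDR summit was 32994 bp away, at CG9344.

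Act79B (FBgn0000045, 3L, 21985210 to 21987190) and Act88F (FBgn0000047, 3R, 15439969 to 15442177) encode actins of adult muscle, Act88F that of the indirect flight muscle. For Act79B the only summit within 3000 bp was in replicate 2, 2000 bp upstream at 0.102 times the median. For Act88F it was also in replicate 2 only, 1780 bp upstream at 0.325 times the median and rank 7510. Replicate 3 and the pooled list held no summit within 3000 bp of either gene. Nearest IDR summits were 43292 bp from Act79B, at PolH, and 11969 bp from Act88F, with CG6118 as the nearest gene.

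The start windows of these genes and of the testis gene betaTub85D (Release 6, 100 bases before to 50 from the start, in the direction of the gene) are shown to set unbound promoters beside those of Act5C and Act87E. Act88F (chr3R:15439869-15440018, plus strand) has the initiator core 82 bases before the start, GAGAG 43 bases and a TATA box 32 bases before it. The Act5C start window holds GAGAG and a TATA box as well. The pooled summits of Act5C and Act87E, 412 and 297 bp upstream, lie outside the start windows shown for these genes. Act79B (chr3L:21985110-21985259, plus strand) has an E-box, CAGCTG, beginning 20 bases before the start. betaTub85D (chr3R:9410233-9410382, minus strand) has the initiator core on the reverse strand, 43 bases before the start.
Act88F start: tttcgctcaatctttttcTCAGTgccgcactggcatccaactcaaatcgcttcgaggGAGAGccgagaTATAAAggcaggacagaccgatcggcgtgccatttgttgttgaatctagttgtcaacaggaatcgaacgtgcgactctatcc
Act79B start: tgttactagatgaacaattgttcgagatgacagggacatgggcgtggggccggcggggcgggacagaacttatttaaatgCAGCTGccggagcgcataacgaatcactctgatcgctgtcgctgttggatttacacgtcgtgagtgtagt
betaTub85D start: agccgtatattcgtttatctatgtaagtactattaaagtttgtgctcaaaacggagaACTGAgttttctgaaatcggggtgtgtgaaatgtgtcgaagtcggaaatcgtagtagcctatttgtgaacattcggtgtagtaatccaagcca

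The beta tubulin paralogues had no summit within 3000 bp in any list. For betaTub60D (FBgn0288686, 2R, 24305881 to 24313099) the nearest pooled summit was 13631 bp downstream of the start at 0.493 times the median, and the nearest IDR summit 21877 bp downstream. For betaTub85D (FBgn0003889, 3R, 9408383 to 9410282, minus strand), the tubulin of the sperm tail, the nearest IDR summit was 6033 bp from the start, at CG9356, whose own start is 20 bp from it. The weakest listed promoter peaks of protein-coding genes had multiples of 0.0514 pooled, 0.0718 for replicate 2 and 0.0603 for replicate 3, so these lists cannot show weaker ones.

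**Figure D2:**
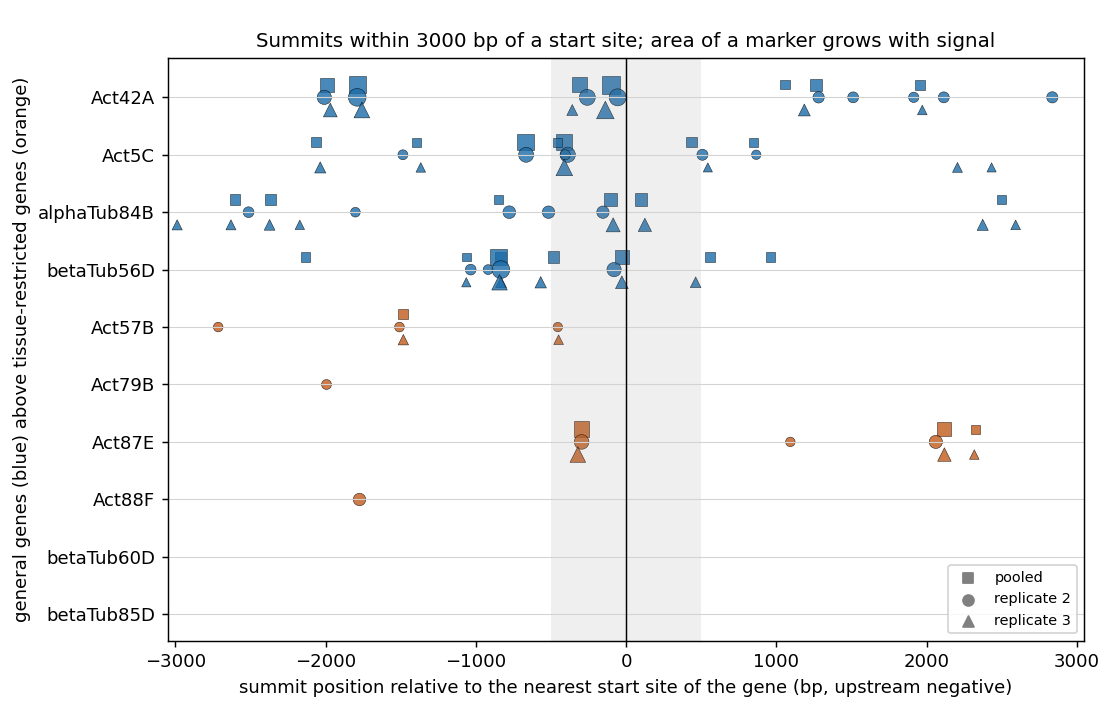
Position of every listed summit within 3000 bp of a start site, in bp relative to the nearest start of the gene (upstream negative), for the pooled list (squares), replicate 2 (circles) and replicate 3 (triangles); larger markers have more signal and the grey band is the 500 bp window. General genes, in blue, have summits in the band in all 3 lists, while betaTub60D and betaTub85D, at the foot, have no summit in the whole range.

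Motifs were searched on both strands from 250 bases before to 50 bases from each start, over 19253 starts of protein-coding genes. TATAAA was found in 3 of the 4 general and 4 of the 6 tissue-restricted genes, and in 42.2% of all windows. It began 24 to 32 bases before a start in 6 genes, namely Act5C, alphaTub84B, betaTub56D, Act57B, Act87E and Act88F, bound and unbound alike. GAGAG, the core recognised by GAGA factor, was in 4 of 4 general genes and in 2 of 6 tissue-restricted genes, Act87E and Act88F, against 33.1% of all windows. Genes with 2 starts had 2 windows, and so more chance of a match. The initiator core TCAGT was in 4 of 4 and 5 of 6 genes (52.1% of all windows). The DNA replication-related element TATCGATA was in none of the 10 (7.98% of all windows), and CAGCTG was in Act79B alone (17.9%). The MEF2 site was in Act57B alone, 202 bases before the start (0.270%), and TATTTATA in Act87E alone (9.40%), where it overlaps the TATA box. A match says only that these letters are there.

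Base composition under the summits differed between the bound and the weaker genes. Windows of 151 bases around the strongest pooled summit had 33.1% G and C at Act42A, 31.1% at Act5C and 27.2% at Act87E. The windows of alphaTub84B and betaTub56D, which missed the IDR list, had 51.7% and 45%, both above the upper quartile of IDR promoter summits. With 5 genes this is a description of those windows. Base composition at other pooled summits below the IDR limit was not measured.

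The genes also differed in where they lie, a property of the annotation that the choice of members did not use. Each of the 4 general genes had a gene of the opposite strand, non-coding at Act5C, starting 516 to 2050 bp upstream (median 888 bp), against a median of 22180 bp for the 6 tissue-restricted genes, whose range was 2266 to 40607 bp. The median over all protein-coding genes was 2398 bp. Another protein-coding gene started within 5 kb of every general gene, at 1 to 3 per gene. Of the tissue-restricted genes, betaTub85D had 3 such neighbours and the other 5 had 0, where the median over all protein-coding genes was 2. The bound gene Act87E had 0 such neighbours, although the non-coding lncRNA:CR45591 starts 492 bp from its summit. The unbound gene betaTub85D had 3. Any link between neighbours and binding was not tested.

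Distance to the nearest IDR summit is read from the same summits as the bound calls, so bound members lie within 500 bp by definition. The summit counted for betaTub56D, at 851 bp, is 53 bp from the start of CG7744. That of alphaTub84B, at 3254 bp, lies past the end of the gene. The general genes had a median of 631.5 bp (101 to 3254 bp), and the tissue-restricted genes had one of 16920 bp (297 to 43292 bp), where Act87E gave the lowest value. Over all protein-coding genes the median was 5491 bp. Act79B lay farther from an IDR summit than 85.9% of protein-coding genes and Act57B farther than 81.4%.

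**Figure D3:**
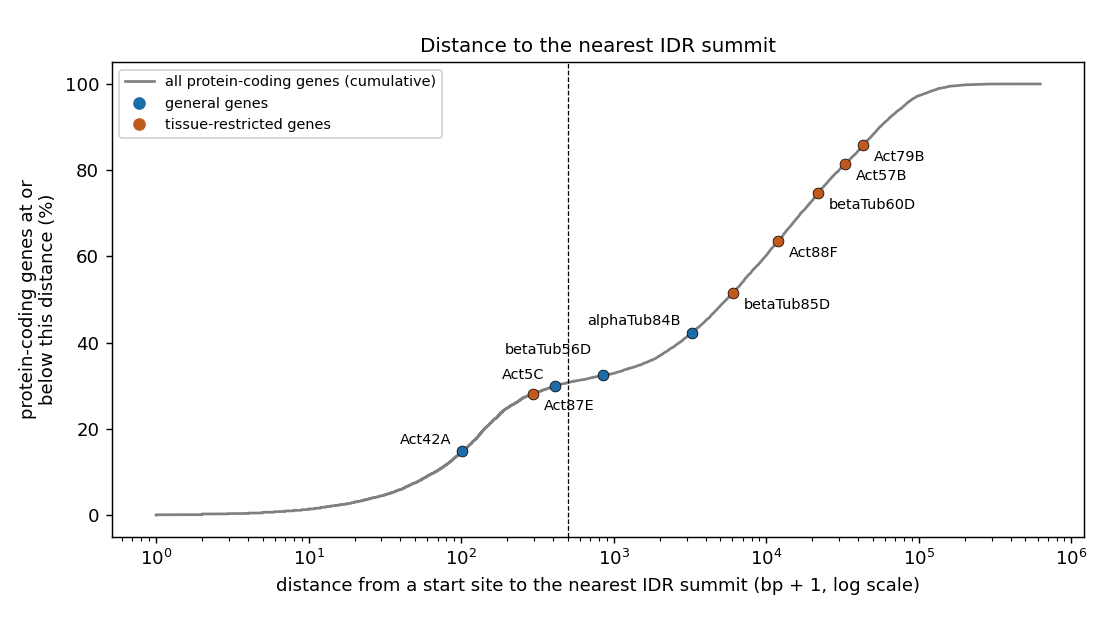
Distance from a start site to the nearest IDR summit (bp + 1, log axis) for the 10 genes, on the cumulative curve of all 13945 protein-coding genes (y axis, percent of genes); the dashed line marks the 500 bp window. General genes, in blue, lie between 101 and 3254 bp, and tissue-restricted genes, in orange, other than Act87E lie between 6033 and 43292 bp.

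Paralogues can share stretches of sequence, so the repeat content of the windows was measured. Of all 36-base words within 500 bp of a start site, 100% occurred once on the 7 chromosomes for 9 of the 10 genes. For Act87E it was 98.36%. The 5 genes without a pooled promoter summit were all among those at 100%. How reads with several matches were treated is not known here, and 36 bases was chosen for this check. Any link between repeat content and the calls was not tested.

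Other genes of the same systems were read from 4 lists. These lists were chosen with earlier results of these data known, so their shares are descriptions. The first held 17 further actin-related and tubulin genes, of which 11 were bound (64.7%, where 30.7% of all protein-coding genes were), with a median multiple of 1.12 against 1.13 over all bound genes. It was led by Bap55 at 3.06 and Arp10 at 2.93 times, an actin-related subunit of chromatin remodelling complexes and one of dynactin. Next came gammaTub23C at 2.20 times, a gamma tubulin that nucleates microtubules, Arp3 at 1.35 times, of the Arp2/3 complex that branches filaments, and Arp53D at 1.29 times.

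All actin-related genes of this list but Arp5 were bound. Among its tubulin genes only alphaTub84D, gammaTub23C and gammaTub37C were, so the 64.7% is not the share of the tubulin genes. alphaTub84D, which encodes a general alpha tubulin nearly identical to that of alphaTub84B, was bound at 1.12 times the median, 1.00 in replicate 2 and 1.01 in replicate 3, against 0.480, 0.309 and 0.563 at alphaTub84B. Both replicates put alphaTub84D above alphaTub84B. Its summit, 161 bp upstream, was shared with Rtnl2. gammaTub37C, the maternal gamma tubulin, was bound at 1.03 times. The maternal alpha tubulin gene alphaTub67C, alphaTub85E and the lesser-used genes betaTub65B and CG7794 had no promoter summit in any list. betaTub97EF had one in replicate 2 only, at 0.414 times the median. Arp5, also unbound, had one in replicate 2 at 0.684 and in replicate 3 at 0.142 times.

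Regulators of actin filaments were bound in 22 of 30 cases (73.3%, beside 30.7% of all protein-coding genes), with 21 and 22 by the 5048 strongest peaks of replicates 2 and 3 alone (29.8% and 30.8% of all protein-coding genes). The strongest was tsr, the fly cofilin, which severs filaments, with multiples of 32.1 pooled, 31.9 for replicate 2 and 26.9 for replicate 3. It was far above the rest, since HSPC300, a subunit of the WAVE complex, followed at 6.06 times. WASp, an activator of the Arp2/3 complex, stood at 4.49, the cross-linker Actn at 3.94 and the capping protein gene cpa at 2.50 times. The 22 genes had a median of 1.16 times, close to the 1.13 of all bound genes. The 8 unbound genes were cib, Mlc-c, ena, Arpc3B, DAAM, capt, cpb and flr, the first 4 of them with a relaxed pooled summit.

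Sarcomere genes, which build the contractile unit around the muscle actins, were bound in 1 of 24 cases (4.17%, beside 30.7% of all protein-coding genes). This was Tm1, a tropomyosin gene with 8 annotated starts that also makes non-muscle forms, at 0.925 times the median, 0.775 in replicate 2 and 0.807 in replicate 3. The genes of muscle myosin, Mhc, Mlc1 and Mlc2, had no pooled summit, and Mhc had one in replicate 2 alone, at 0.198 times the median. In the relaxed pooled list 9 of 24 had a summit (37.5%, beside 46.3% of all genes), with a median multiple of 0.245 against 0.785 over all genes with one. The 5048 strongest peaks of replicate 2 gave 3 of 24, beside 29.8% of all genes, and those of replicate 3 gave 2 of 24, beside 30.8%. Both include sls, which is described with the other observations. The muscle actin gene Act87E, with 0.947, stood close to Tm1.

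Genes of microtubule nucleation, tubulin folding and transport were bound in 12 of 23 cases (52.2%, beside 30.7% of all protein-coding genes), at a median of 1.04 times against 1.13 over all bound genes. Grip71 and Grip84, of the gamma tubulin ring complex, led at 6.07 and 5.21 times. They were followed by Klc, a kinesin light chain, at 3.10, Tbcd, a tubulin folding cofactor, at 2.83, and Kat60, a microtubule-severing ATPase, at 1.91 times. The neuronal microtubule-associated protein genes futsch and tau had no promoter summit in any list, and neither did Tbcb and Tbcc, of tubulin folding, or Dhc64C, the heavy chain of cytoplasmic dynein, which is used in most cells.

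A summit can lie near the starts of several genes. Another gene started within 500 bp of the strongest IDR summit in 8 of 11 bound actin-related and tubulin genes, 15 of 22 bound actin regulators, 8 of 12 bound microtubule genes and 0 of 1 sarcomere genes, beside 67.4% of all 4284 bound protein-coding genes. Such a summit counts for both genes. Among the leading genes this held for Bap55, gammaTub23C, Arp3, Arp53D, HSPC300, Actn, cpa, Grip71, Grip84, Klc, Tbcd and Kat60. It did not hold for Arp10, tsr or WASp. The actin regulators Abi and twf were both counted for the same summit. Of the 3 bound members, Act42A had no such neighbour, and those of Act5C and Act87E were non-coding genes.

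**Figure D4:**
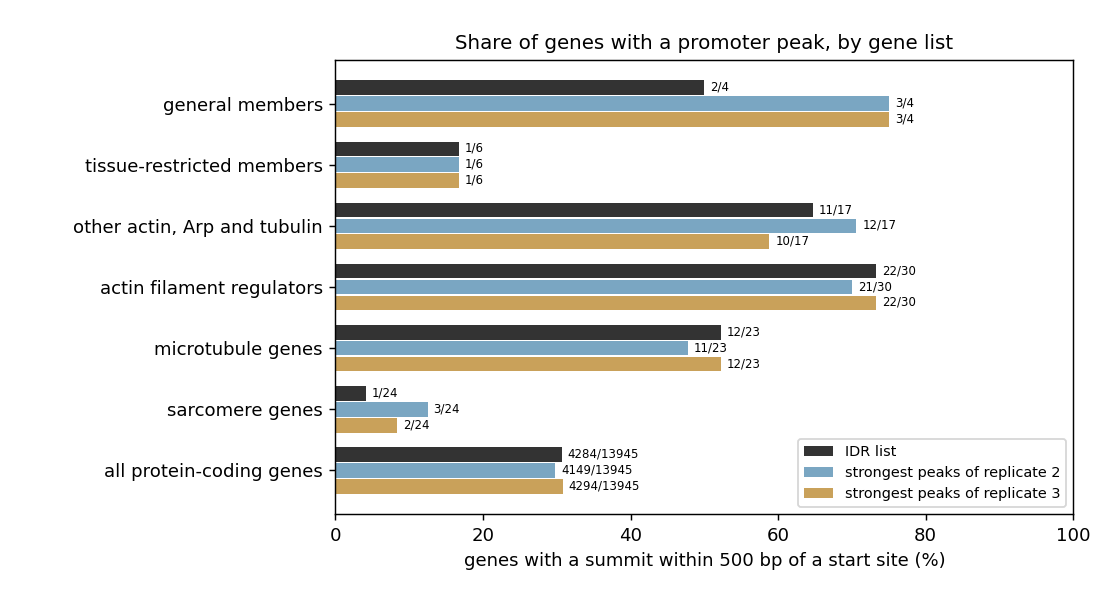
Share of genes with a summit within 500 bp of a start site (x axis, percent, with counts at the bars) in the IDR list and in the 5048 strongest peaks of replicates 2 and 3. In the IDR list the 17 other actin-related and tubulin genes stand at 64.7%. Their only bound tubulin genes are alphaTub84D, gammaTub23C and gammaTub37C. The 30 actin regulators stand at 73.3% and the 24 sarcomere genes at 4.17%, beside 30.7% of all 13945 protein-coding genes.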

How the data were processed

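Per the labels, DNA from whole embryos of a line carrying CG30020 with a C-terminal GFP was immunoprecipitated with an antibody against GFP, in biological replicates 2 and 3. Notes that the authors deposited state that they called peaks on dm6 for each replicate and for both pooled, against 1 control alignment, and derived an irreproducible discovery rate (IDR) list from these. Neither aligner nor caller is named in the sources used here. The deposited signal value has no stated scale, so it was ranked or divided by a median. The authors' deposited −log10 q value reaches a ceiling, so nothing was ranked by it. The deposited offset gave each summit.

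Bound genes are those with an annotated start site (Ensembl 115 models) at most 500 bp from an IDR summit. Multiples use the median of all 5048 IDR peaks for the pooled list and, for replicates 2 and 3, the median over the strongest peaks within 250 bp of 4955 and 5005 IDR summits. Sequence came from the Release 6 genome (the sequence of dm6). The promoter call, run in Python 3.11.15 with pandas 2.3.3, was tested on simulated summits. The depth of the libraries is unknown, and each relaxed list holds 30000 peaks whatever its depth. With 1 group, nothing was compared between conditions, and no chance test over genes was run. All 10 members were named, with neighbours that share their peaks and up to 5 bound genes of each other list, strongest first. Other genes named in the text were chosen after their values were seen. Members and lists were chosen with earlier results of these data known. Alternatives were windows of 200 and 1000 bp, interval overlap of at least 1 bp, start-site choices, stronger peaks and single replicates; those for the 4 other lists were added after seeing the data.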

Additional observations from a re-analysis of the deposited data

How the results depend on the processing

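The counts of members depended on the window, since 2 of the 3 bound genes have their summit more than 200 bp from a start. With a 200 bp window, and likewise with an interval that must cover the start, 1 of 4 general genes (Act42A) and 0 of 6 tissue-restricted genes were bound, beside 24.9% and 25.5% of all protein-coding genes under these settings. In the relaxed pooled list both settings gave 3 of 4 general and 0 of 6 tissue-restricted genes, beside 38.5% and 39.9% of all genes. With IDR peaks above the median signal 2 of 4 general and 0 of 6 tissue-restricted genes were bound, beside 18% of all genes. Leaving out either replicate gave 3 general genes (alphaTub84B without replicate 2, betaTub56D without replicate 3) and 1 tissue-restricted gene in the stringent lists (30.8% of all genes without replicate 2 and 29.8% without replicate 3), and 2 tissue-restricted genes in the relaxed ones (48% and 49.4%). Multiples without 1 replicate ranged from 1.34 to 1.54 at Act42A, 0.815 to 1.21 at Act5C and 0.691 to 0.921 at Act87E. At betaTub56D a 1000 bp window gave 1.26, through the summit at CG7744. No multiple was had at Act5C's or Act87E's promoter with 200 bp. The 17 actin-related and tubulin genes gave 6 bound with each summit counted for its nearest start only (22.3% of all genes) and 7 with peaks above the median (18%). With nearest starts only, 15 of 30 actin regulators and 8 of 23 microtubule genes were bound, beside the same 22.3%. The microtubule list gave 6 of 23 with peaks above the median (18%). The sarcomere list of 24 gave 3 with 1000 bp (32.9%), 0 with outermost starts only (29.3%), 0 with peaks above the median (18%), and 2 to 3 without 1 replicate (30.8% and 29.8%). The cause of these shifts was not tested beyond the construction of each setting. No paired analysis was possible because there is 1 group. Depth is unknown, so occupancy too weak to be listed cannot be told from none.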

Other observations

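A few strong sites present in both replicates were missing from the pooled list. Of 4182 peaks among the 5048 strongest of replicate 2 that had one of the 5048 strongest of replicate 3 within 250 bp, 30 (0.717%) had no pooled summit within 500 bp. Among genes with a promoter summit in the strongest peaks of both replicates, 38 of 3653 (1.04%) had none in the pooled list. None of the 10 actin and tubulin members was such a gene. In the other lists there were 2, sls and capt. The promoter of sls, a titin-like gene of the sarcomere, carried a peak at 1.33 times the median in replicate 2 and 1.25 times in replicate 3, and capt, the cyclase-associated actin regulator, stood at 0.719 and 0.704 times. Counted from the replicates, sls would be a bound sarcomere gene beside Tm1, and its replicate multiples were higher than those of Act87E, at 0.691 and 0.921.

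Some sarcomere genes had an IDR summit just past the window. For fln, which encodes the flight muscle protein flightin, the nearest lay 639 bp from a start, and for the troponin C gene TpnC47D 661 bp. Both were named after their values were seen.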
